A study of Mus musculus with 36 samples.

Results

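The 10 genes described here encode the receptor chains, kinases, transcription factors and feedback inhibitors through which interleukin-7 (IL-7) and interleukin-2 (IL-2) signal to STAT5. They were taken by gene symbol from a table of 12762 mouse genes, and all 10 were found. The measurements are messenger RNA sequencing of B3 cells, a mouse pre-B cell line, in 36 libraries. Control cells carried the empty retroviral vector MSCV ERt2-IRES-GFP, and Ikaros cells carried HA-Ikaros-ERt2-IRES-GFP, a tagged Ikaros fused to a hormone-binding domain that moves the protein into the nucleus when 4-hydroxytamoxifen (4-OHT) is present. Both lines were sampled at 0, 2, 6, 12, 18 and 24 h, which makes 12 groups of 3 libraries. The labels list 0.5 uM 4-OHT for every sample, while the methods of the study say that cells collected for 0 h had no drug and were obtained separately. Both lines are pools of sorted, GFP-positive transduced cells, so the comparison between lines also holds any difference that arose before induction. Libraries came from culture batches 1, 2 and 4 at 0 h and from batches 1, 3 and 4 at the later times, and library values below are given in that order.

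IL-7 is the main growth factor of early B-lineage cells. Its receptor pairs the IL-7 receptor alpha chain with the common gamma chain, which also serves the receptors for IL-2, IL-4, IL-9, IL-15 and IL-21. Binding brings together the kinases JAK1 and JAK3, which phosphorylate STAT5A and STAT5B. These enter the nucleus and switch on targets that include the inhibitors CISH, SOCS2 and SOCS3, which dampen the same pathway. In pre-B cells the pathway favours proliferation, and its decline accompanies exit from the cell cycle and rearrangement of the light chain genes.

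The sequence that dimers of STAT proteins bind is known by its core, so the promoters of the 10 genes were searched for it before their values are described. RefSeq promoter windows of 300 bases, 250 before and 50 after a transcript start, were matched by symbol for 9 of the 10 genes, in 11 windows on GRCm38.p6, and Socs2 had none in that set. The palindrome TTCNNNGAA, which reads alike on both strands, was present in 3 of the 11 windows, those of Cish, Socs3 and Il7r, and in 8.3% of all 32851 windows. The stretches below, 30 bases each, show these matches, with the fixed letters of the motif in capitals.
Cish, chr9:107296654-107296683, plus strand: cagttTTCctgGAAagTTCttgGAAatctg
Socs3, chr11:117969501-117969530, minus strand: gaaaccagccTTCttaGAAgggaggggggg
Il7r, chr15:9529999-9530028, minus strand: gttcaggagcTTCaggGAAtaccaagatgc
Cish had 2 matches in tandem, the first starting at the first base of the RefSeq transcript and the second 11 bases further on, inside an untranslated exon of the GENCODE annotation. The matches of Socs3 and Il7r lay upstream of the RefSeq start, at -154 and -142, where GENCODE has introns of longer transcripts. GGGAA, the core recognised by Ikaros proteins, was present on either strand in 7 of the 11 windows (63.6%), near its share of 62.7% among all windows. In the Il7r window it overlapped the STAT motif, starting at -138. A match is a description of these letters and not evidence that a factor binds there.

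Expression values are on a log2 scale, corrected by the authors for gene length and GC content, and are relative to a constant added to the whole table. In control cells at 0 h, Jak1 had the highest level of the 10 genes, 15.32 ± 0.12 (SD, n = 3), followed by Stat5a at 14.81 ± 0.26 and Il7r at 14.50 ± 0.12. Socs2, Jak3 and Stat5b came next at 13.77, 13.71 and 13.45, and the libraries of neighbours among these 3 overlapped. Il2ra stood lower at 12.48 ± 0.33, Cish and Il2rg overlapped at 11.09 and 10.95, and Socs3 was lowest at 7.42 ± 0.28. Over all 36 libraries Jak1 lay at the 94.5 percentile of genes and Socs3 at the 10.3 percentile.

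In Ikaros cells at 0 h Jak1 was also highest at 15.22 ± 0.12, with Stat5a and Il7r overlapping at 14.20 and 14.10. Jak3 followed at 13.64, Stat5b and Socs2 overlapped at 12.96 and 12.78, and Il2rg, Il2ra, Cish and Socs3 were lower at 10.62, 10.08, 9.04 and 6.22. By 24 h the order within this line had changed, while in control cells at 24 h Jak1 and Stat5a still came first, at 15.23 and 14.65, ahead of Jak3 and Il7r, which overlapped at 13.85 and 13.79. In Ikaros cells at 24 h Il7r was highest at 15.94 ± 0.13, above Jak1 at 15.43 ± 0.31 and Stat5a at 15.01 ± 0.02. Il2ra came next at 14.40 ± 0.29 and overlapped Stat5b at 14.11 ± 0.16. Jak3, Il2rg and Socs2 followed at 12.70, 12.52 and 12.51 with overlapping libraries, and Cish and Socs3 were lowest at 9.81 and 8.07.

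**Figure D1:**
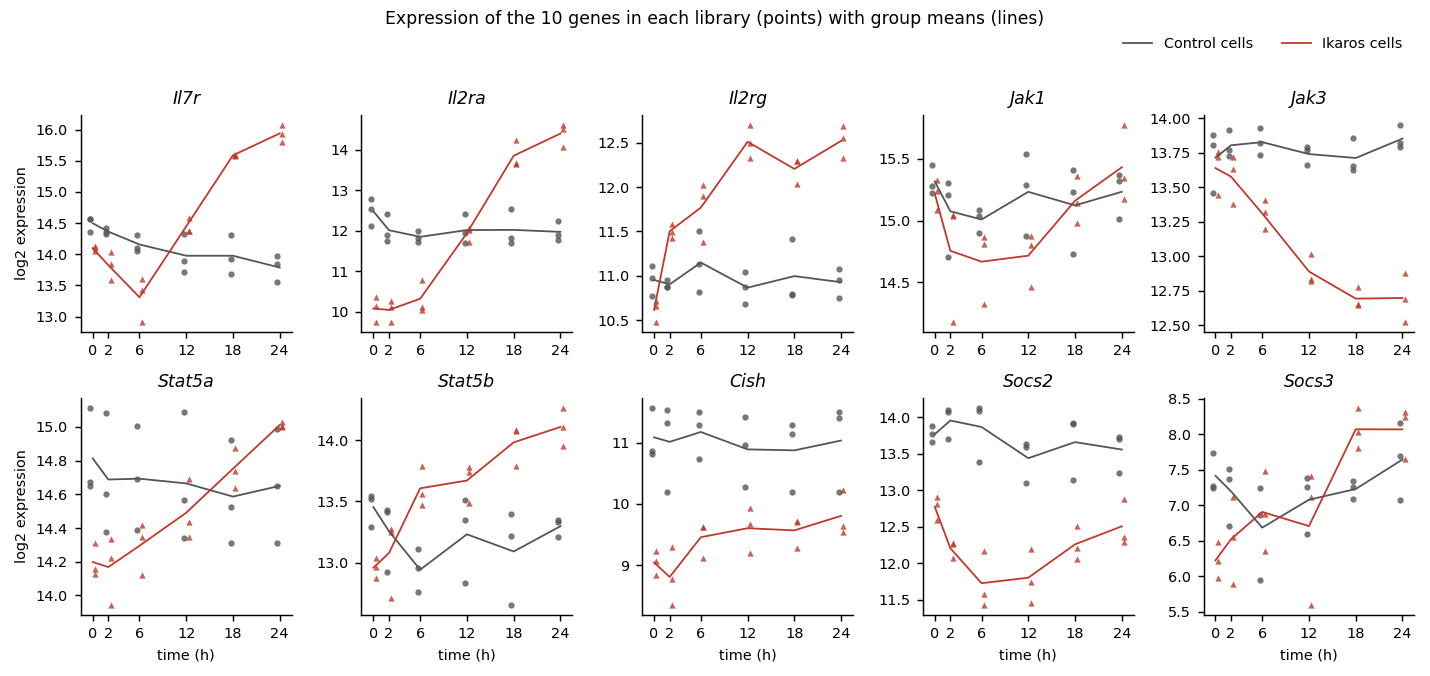
Log2 expression (vertical axes, a separate range for each gene) against time in hours for the 10 genes. Points are single libraries, circles for control and triangles for Ikaros cells, and lines join the means of 3 libraries. In Ikaros cells Il7r dips to 13.31 at 6 h and reaches 15.94 at 24 h, Il2ra climbs from 10.08 to 14.40, and Jak3 descends from 13.64 to 12.70.

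The lines were first compared at each time by the limma fit over all genes, with adjusted p under 0.05 as a call. At 0 h, 3 of the 10 genes were called, against 8.33% of all genes tested, and all 3 were lower in Ikaros cells. With culture batch as a block the count at 0 h was 6, against 10.7% of all genes in that fit. The counts at the later times are from the fit without the block. At 2 h the count was 5 against 19.1%, at 6 h 7 against 37.3%, and at 12 h 5 against 45.8%. At 18 h 7 of the 10 were called against 58.2% of all genes. At 24 h it was again 7, against 62.9% of all genes, with 4 higher where 31.0% of all genes were higher and 3 lower where 31.9% were lower. The count of 7 of 10 is thus near the share of all genes called at 18 and 24 h. In bulk samples, fewer cells with a transcript and less of that transcript per cell cannot be told apart.

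Il7r encodes the IL-7 receptor alpha chain. It was lower in Ikaros than in control cells at 2 and 6 h and higher from 12 h on. At 6 h the control libraries read 14.30, 14.11 and 14.06, and the Ikaros libraries read 13.60, 13.42 and 12.92. Every Ikaros library was below every control library, a difference of -0.85 ± 0.16 (SE, adjusted p = 0.000206). At 24 h the control libraries read 13.97, 13.84 and 13.55 against 16.08, 15.94 and 15.81 in Ikaros cells. The groups stood apart by more than any spread within them, and the difference of 2.15 ± 0.16 is a 4.44-fold higher level (adjusted p = 1.03e-11). The groups did not overlap at any of the 6 times, and the direction was the same in all 3 batches at each time.

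The smaller differences of Il7r were less firm. At 0 h it was -0.40 (adjusted p = 0.158, or 0.0338 with culture batch as a block). At 2 h it was -0.54 (adjusted p = 0.0217), which became -0.52 with adjusted p = 0.295 without replicate 2 (batch 3) and -0.44 with 0.0838 without replicate 3 (batch 4). At 12 h it was 0.47 (adjusted p = 0.0205), which became 0.37 with 0.301 without replicate 2. At 18 h the difference was 1.61 (adjusted p = 3.55e-09).

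Il7r also moved within the Ikaros line. Against the 0 h libraries of the same line, which read 14.06, 14.13 and 14.10, it fell by 0.79 at 6 h (adjusted p = 0.000526) and was 1.84 higher at 24 h (adjusted p = 2.45e-10). In control cells its level at 24 h was -0.71 relative to 0 h (adjusted p = 0.0476). That last call was lost without any one of the 3 replicates, with adjusted p from 0.151 to 0.718.

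Il2ra encodes CD25, the IL-2 receptor alpha chain, whose appearance at the cell surface marks the pre-BII stage. It started lower in Ikaros cells, met the control level at 12 h and was higher afterwards. At 0 h the control libraries read 12.77, 12.54 and 12.12, and the Ikaros libraries read 10.13, 10.35 and 9.75. This difference of -2.40 ± 0.25 was the largest of the 10 genes before induction (adjusted p = 1.33e-07). At 12 h the libraries read 12.41, 11.69 and 11.94 in control and 12.07, 11.72 and 12.02 in Ikaros cells. Those groups overlapped, with a difference of -0.08 and a 95% interval from -0.60 to 0.44 (adjusted p = 0.83).

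At 24 h Il2ra stood at 12.24, 11.90 and 11.76 in control and at 14.61, 14.52 and 14.07 in Ikaros cells. All Ikaros libraries were above all control libraries, by 2.43 ± 0.25, a 5.39-fold higher level (adjusted p = 4e-09). At 2, 6 and 18 h the differences were -1.97, -1.53 and 1.83, with adjusted p of 2.02e-06, 3.13e-05 and 6.82e-07. Within Ikaros cells Il2ra rose by 4.32 from 0 to 24 h, a 20.0-fold higher level (adjusted p = 5.92e-14), and the rise was first called at 12 h, at 1.86 (adjusted p = 1.14e-06). At 2 and 6 h its changes from 0 h were -0.04 and 0.24 and were not called.

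Il2rg encodes the common gamma chain. Of the 10 genes it alone was called within Ikaros cells at 2 h against 0 h, where 19.2% of all genes were called. With culture batch as a block 3 of the 10 were called, against 29.1% of all genes in that fit. The Ikaros libraries of Il2rg read 10.48, 10.71 and 10.66 at 0 h and 11.50, 11.42 and 11.59 at 2 h. All 3 later libraries were above all 3 earlier ones, by 0.88 ± 0.18 (adjusted p = 0.000824). The control libraries at these times read 10.98, 11.11 and 10.77, then 10.88, 10.96 and 10.88. Control cells thus lay above Ikaros cells at 0 h, by a difference that was not called (-0.34, adjusted p = 0.311), and below them at 2 h.

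The difference of Il2rg between lines was 0.60 at 2 h (adjusted p = 0.017). It was 0.62 at 6 h, with overlapping libraries (adjusted p = 0.00704). The call at 2 h was lost without any one replicate, with differences from 0.54 to 0.66 and adjusted p from 0.0751 to 0.114. The call at 6 h was lost without replicate 2, where the difference was 0.39 (adjusted p = 0.241). From 12 h the gap was wider, at 1.64, 1.21 and 1.59 (adjusted p = 1.91e-08, 1.52e-06 and 1.15e-08). At 24 h the control libraries read 10.75, 11.08 and 10.96, and the Ikaros libraries 12.33, 12.68 and 12.55, a 3.01-fold higher level without overlap. In GENCODE, Il2rg lies wholly within Gm20489 on the same strand, a gene that has no row of its own here, so its reads may not be separable from those of that gene.

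**Figure D2:**
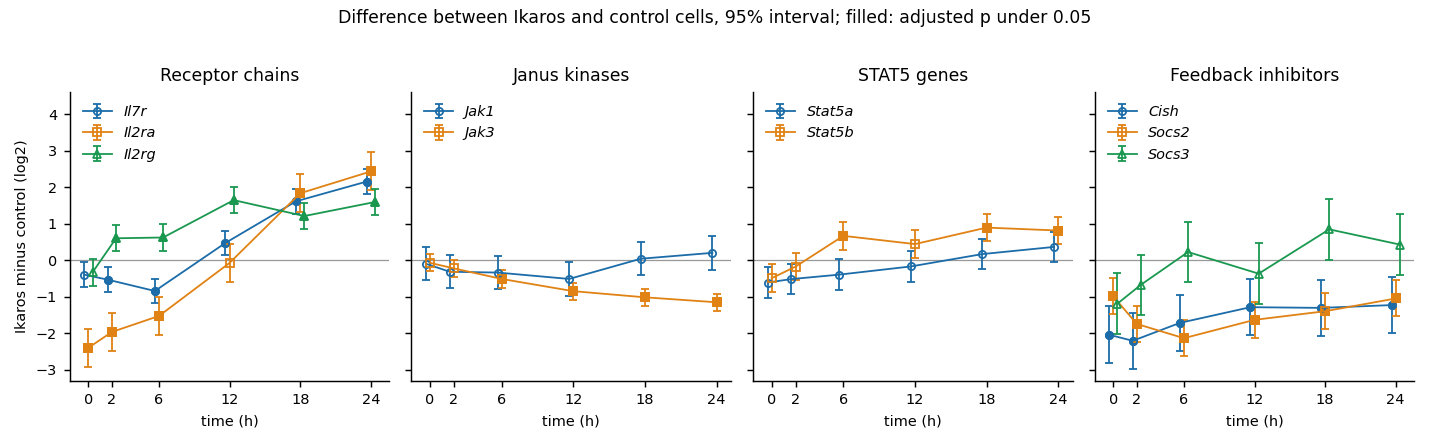
Difference in log2 expression, Ikaros minus control (vertical axis), against time in hours, with 95% intervals from the limma fit, in panels for receptor chains, kinases, STAT5 genes and inhibitors. Filled symbols have an adjusted p under 0.05 and open symbols do not. The receptor chains end above zero at 2.15, 2.43 and 1.59, Jak3 ends at -1.16, and Cish and Socs2 stay below zero at all 6 times.

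Jak1 and Jak3 encode the kinases that bind the receptor's specific chain and the common gamma chain, and they did not follow the same course. Jak1 was not called between lines at any time, and its differences ran from -0.52 at 12 h to 0.20 at 24 h with an SE of 0.22. At 24 h the 95% interval reached from -0.26 to 0.66, so differences up to those bounds could not be told from none. At 12 h the adjusted p was 0.06, or 0.00361 with culture batch as a block and 0.00364 without replicate 3. Within Ikaros cells Jak1 differed from 0 h by -0.46, -0.55 and -0.50 at 2, 6 and 12 h (adjusted p = 0.141, 0.0598 and 0.0683). With culture batch as a block these changes were -0.54, -0.62 and -0.58 (adjusted p = 0.0109, 0.00222 and 0.00292). At 24 h its change from 0 h was 0.22 (adjusted p = 0.416). From 2 to 24 h Jak1 rose in this line by 0.68 (adjusted p = 0.0108). Without replicate 2 that rise was 0.65 with adjusted p = 0.109.

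Jak3 was lower in Ikaros cells from 6 h on. At 0 h the control libraries read 13.88, 13.80 and 13.46 and the Ikaros libraries 13.75, 13.72 and 13.44. These overlapped, and the difference was -0.08 (95% interval -0.31 to 0.16). At 24 h control cells stood at 13.82, 13.79 and 13.95 and Ikaros cells at 12.69, 12.88 and 12.52. Every Ikaros library was then below every control library, by -1.16 ± 0.11, a 2.23-fold lower level (adjusted p = 1.64e-09). The differences at 6, 12 and 18 h were -0.52, -0.85 and -1.02 (adjusted p = 0.000854, 8.39e-07 and 2.14e-08).

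The groups of Jak3 did not overlap from 2 h on, and it was lower in Ikaros cells in all 18 pairs of libraries of the same time and batch. Within Ikaros cells it fell by 0.94 from 0 to 24 h (adjusted p = 7.11e-08). Over 24 h Jak3 therefore went down in the same cells in which Il2rg, whose product it binds, went up. Jak3 shares 1362 bases on the same strand with Insl3, which was not called at any time and differed by -0.75 at 24 h (adjusted p = 0.179).

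Stat5a and Stat5b are neighbours on chromosome 11, separated by 8626 bases and transcribed away from each other. Stat5b moved from below to above the control level. At 0 h its libraries read 13.52, 13.29 and 13.54 in control and 12.96, 12.87 and 13.04 in Ikaros cells. Every Ikaros library was lower, yet the difference of -0.49 was not called (adjusted p = 0.107, or 0.0145 with culture batch as a block). At 24 h they read 13.34, 13.33 and 13.21 in control against 14.26, 13.95 and 14.11 in Ikaros cells. The groups did not overlap, and Stat5b was higher by 0.81 ± 0.18, or 1.75-fold (adjusted p = 0.000416).

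At 6 h Stat5b was 0.66 higher in Ikaros cells (adjusted p = 0.00585), a call lost without replicate 1 (0.58, adjusted p = 0.116) or replicate 2 (0.77, adjusted p = 0.0587). At 12 h it was 0.44 (adjusted p = 0.053, or 0.00764 with the block) and at 18 h 0.89 (adjusted p = 0.000167). Within Ikaros cells Stat5b rose by 1.15 from 0 to 24 h (adjusted p = 5.45e-06).

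Stat5a was not called between lines at any time, and its control libraries were spread by culture batch. At 24 h the control libraries read 14.31, 14.99 and 14.65, while the Ikaros libraries read 15.00, 15.00 and 15.03. The Ikaros libraries lay within 0.03 of each other and above all control libraries, by 0.36 ± 0.20 (adjusted p = 0.125). With culture batch as a block the adjusted p was 0.045, and without replicate 2 the difference was 0.53 (adjusted p = 0.038). At 0, 2 and 6 h the differences were -0.61, -0.52 and -0.40, with adjusted p of 0.0614, 0.0756 and 0.127, or 0.0101, 0.0174 and 0.0424 with the block.

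Over 2 to 24 h the control means of Stat5a for batches 1, 3 and 4 were 14.35, 15.02 and 14.61, whereas the Ikaros means were 14.57, 14.60 and 14.46. Within Ikaros cells Stat5a rose by 0.81 from 0 to 24 h (adjusted p = 0.00118). GENCODE places 72 bases of Stat5a on the strand opposite Stat3. Between lines Stat3 was called higher in Ikaros cells from 6 h on, by 0.81 at 6 h and 1.42 at 24 h (adjusted p = 4.88e-05 and 1.25e-09). Whether reads of Stat3 enter the Stat5a values was not tested.

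Cish encodes an inhibitor that docks on activated receptors and is a standard target of STAT5. It was lower in Ikaros cells at all 6 times. At 0 h the control libraries read 10.82, 10.87 and 11.57 against 9.07, 8.83 and 9.23 in Ikaros cells. Every Ikaros library was more than 1 unit below every control library, and the difference was -2.05 ± 0.38, a 4.13-fold lower level (adjusted p = 0.000458). At 24 h the libraries read 10.20, 11.50 and 11.41 in control and 9.65, 10.22 and 9.55 in Ikaros cells. These overlapped narrowly, because the control library of batch 1 fell below the Ikaros library of batch 3.

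The differences of Cish at 2, 6, 12, 18 and 24 h were -2.21, -1.72, -1.29, -1.31 and -1.23, with adjusted p of 0.000102, 0.000738, 0.00642, 0.00419 and 0.00607. Cish was lower in Ikaros cells in all 18 pairs of the same time and batch, by between -0.56 and -2.97. Averaged over 2 to 24 h, the control libraries of batch 1 stood at 10.32, below those of batches 3 and 4 at 11.38 and 11.30. Without replicate 2 the calls at 12, 18 and 24 h were lost (-1.18, -1.24 and -1.21, adjusted p = 0.0813, 0.0521 and 0.0517), as they were without replicate 3 (-1.29, -1.18 and -0.92, adjusted p = 0.0573, 0.0668 and 0.142). On the strand opposite Cish, GENCODE has the antisense gene Gm17041 and the transcribed pseudogene Gm17040, neither with a row here.

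**Figure D3:**
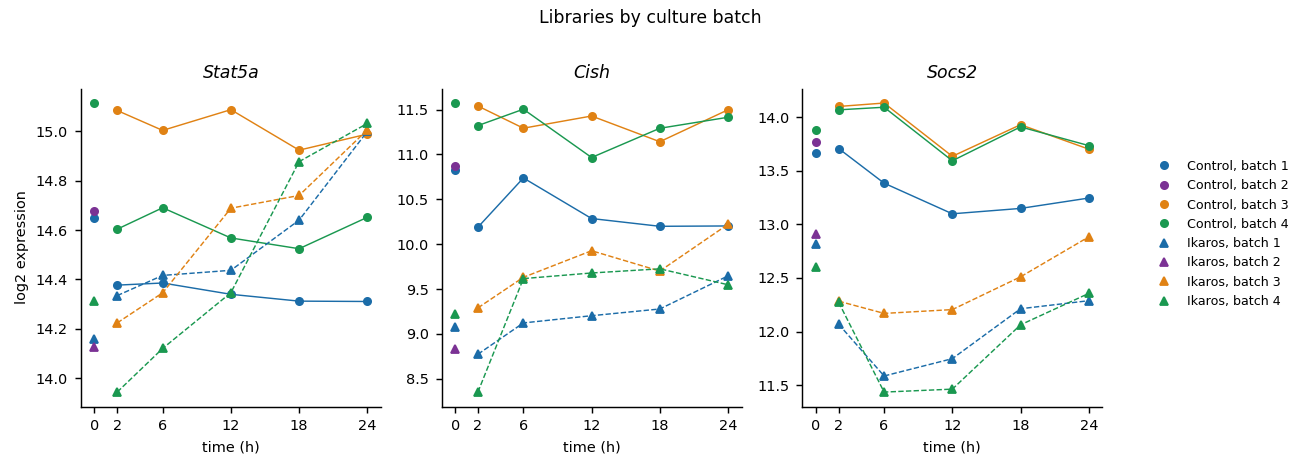
Log2 expression (vertical axes) against time in hours for Stat5a, Cish and Socs2, with each library coloured by culture batch, circles with solid lines for control and triangles with dashed lines for Ikaros cells, and 0 h left unjoined. For Cish the control libraries of batch 1 average 10.32 over 2 to 24 h, nearer to the Ikaros libraries than batches 3 and 4, and at 24 h the Stat5a values of Ikaros cells coincide near 15.0 while control batches spread from 14.31 to 14.99.

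Socs2, an inhibitor known also for limiting growth hormone signalling, was lower in Ikaros cells at all 6 times and lowest in the middle of the course. At 0 h its libraries read 13.67, 13.77 and 13.88 in control and 12.82, 12.91 and 12.60 in Ikaros cells. At 6 h they read 13.38, 14.13 and 14.09 against 11.59, 12.17 and 11.44. In both cases all Ikaros libraries were below all control libraries, by -0.996 ± 0.24 at 0 h (adjusted p = 0.00725) and by -2.14 ± 0.24 at 6 h, a 4.41-fold lower level (adjusted p = 9.76e-08).

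At 24 h Socs2 stood at 13.25, 13.70 and 13.73 in control and at 12.29, 12.88 and 12.36 in Ikaros cells, a difference of -1.05 (adjusted p = 0.000438). The differences at 2, 12 and 18 h were -1.75, -1.64 and -1.40 (adjusted p = 5.05e-06, 3.01e-06 and 1.59e-05), and it was lower in all 18 pairs of the same time and batch. The call at 0 h was lost without replicate 2 (-1.06, adjusted p = 0.0644) or replicate 3 (-0.85, adjusted p = 0.123). Within Ikaros cells Socs2 fell by 1.05 from 0 to 6 h (adjusted p = 0.00137), and at 24 h its change from 0 h was -0.27 (adjusted p = 0.346).

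Socs3 inhibits JAKs bound to cytokine receptors of the gp130 type in particular. It was the least expressed of the 10 genes and was not called between lines at any time. At 0 h the libraries read 7.27, 7.24 and 7.74 in control and 6.22, 6.48 and 5.97 in Ikaros cells, without overlap (difference -1.19 ± 0.40, adjusted p = 0.0679). At 24 h they read 7.08, 7.70 and 8.16 in control and 8.25, 7.65 and 8.32 in Ikaros cells, with overlap (0.43, adjusted p = 0.368). The SD within groups, pooled over the 12 groups, was 0.511 for Socs3, the widest of the 10 genes and close to 0.478 for Cish, and a filter on low values removed it. Within Ikaros cells Socs3 rose by 1.85 from 0 to 24 h (adjusted p = 0.000284).

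Because the lines differed before induction, the change of the difference between lines was tested as well. From 0 to 24 h it was called for 7 of the 10 genes, where 48.4% of all genes were called. For the 3 receptor chains the difference turned from below to above zero. It moved for Il2ra from -2.40 to 2.43, a change of 4.83 ± 0.36 (adjusted p = 2.22e-11), for Il7r by 2.55 ± 0.23 (adjusted p = 9.2e-10) and for Il2rg by 1.93 ± 0.25 (adjusted p = 3.71e-07). Stat5b changed by 1.30 (adjusted p = 0.000157) and Stat5a by 0.98 (adjusted p = 0.00636). Jak3 changed by -1.08 ± 0.16 (adjusted p = 3.79e-06), the only call downwards among the 10.

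The change of Socs3 was 1.62 ± 0.57 (adjusted p = 0.0205), and that call was lost without replicate 1 (1.32, adjusted p = 0.212) and after quantile normalization (1.36, adjusted p = 0.0882). The Stat5a call was lost without replicate 1 (0.87, adjusted p = 0.0545) or replicate 3 (0.87, adjusted p = 0.0976). For Jak1, Cish and Socs2 the changes were 0.30, 0.81 and -0.06, with adjusted p of 0.459, 0.217 and 0.907, and that of Cish was 0.0375 with culture batch as a block. The 95% intervals reached from -0.28 to 1.91 for Cish and from -0.75 to 0.64 for Socs2, and both genes were called lower in Ikaros cells at 0 h as well as at 24 h.

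At the other times, the change of the difference from 0 h was called for 1 gene at 2 h (Il2rg), 3 at 6 h, 5 at 12 h and 7 at 18 h. The shares of all genes were 3.1%, 15.9%, 29.7% and 43.0%. From 2 to 24 h, which leaves out the separately collected 0 h cultures, 6 of the 10 were called against 47.3% of all genes. These were Il7r, Il2ra, Il2rg, Stat5a and Stat5b upwards and Jak3 downwards. With culture batch as a block 9 were called against 51.5% of all genes, the further calls being Jak1 (0.52, adjusted p = 0.0319), Cish (0.98, adjusted p = 0.0138) and Socs2 (0.70, adjusted p = 0.0182). The Stat5a call was lost without replicate 3 (0.80, adjusted p = 0.127) and the Stat5b call without replicate 1 (0.94, adjusted p = 0.0507).

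The movement was mostly in Ikaros cells. Against their own 0 h, 1, 5, 5, 7 and 7 of the 10 genes were called at 2, 6, 12, 18 and 24 h, where 19.2%, 32.8%, 46.1%, 54.6% and 60.6% of all genes were. From 2 to 24 h, 9 of the 10 were called in Ikaros cells against 60.6% of all genes, 8 upwards and Jak3 downwards, and Socs2 was not called (0.30, adjusted p = 0.286). Among the 8 was Cish, at 1.00 (adjusted p = 0.0243), a call lost without replicate 2 (1.03, adjusted p = 0.0953) or replicate 3 (0.90, adjusted p = 0.151).

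In control cells limma called none of the 10 at 2, 6, 12 or 18 h against 0 h, where 0.047%, 5.1%, 0.0549% and 0.478% of all genes were called. At an unadjusted p under 0.05, 0, 3, 1 and 1 of the 10 passed at these times, where 7.88%, 28.1%, 5.7% and 14.9% of all genes did. At 24 h it called 1, Il7r, against 0.47% of all genes, and from 2 to 24 h it called 0, against 0.454%, with 1 at an unadjusted p under 0.05, where 12.1% of all genes passed. With culture batch as a block, 2 genes were called at 6 h against 20.3% of all genes, and 1 from 2 to 24 h against 0.917%.

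The other genes of the pathway were read from lists by role. Of 18 listed ligands and further receptor chains, 8 had a row, and at 24 h 2 were called higher, 2 lower and 4 not called, with a median difference of -0.20 against -0.01 over all genes, of which 31.0% were called higher and 31.9% lower. Crlf2, which pairs with the IL-7 receptor alpha chain to bind TSLP, was higher by 0.85 (adjusted p = 7.74e-06). Csf2rb, the beta chain shared by the IL-3 and GM-CSF receptors, was higher by 0.75 (adjusted p = 0.00999). Il3ra, the alpha chain for IL-3, differed by -0.80 (adjusted p = 0.00767). Il15ra, the alpha chain for IL-15, was lower at all 6 times, by between -1.58 at 6 h and -0.43 at 24 h.

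Of 6 other JAK and STAT genes reported here, all had a row, and at 24 h 5 were called higher, none lower and Stat4 not called (0.04, adjusted p = 0.852), where 31.0% of all genes were higher and 31.9% lower. Their median difference was 1.41. Stat2, which acts in interferon signalling, was the highest at 1.98 (adjusted p = 7.54e-12) and was higher at all 6 times, from 0.53 at 0 h. Jak2, the kinase of the IL-3 and erythropoietin receptors, was higher by 1.44 (adjusted p = 2.92e-08). Jak3 was the one Janus kinase gene called lower at 24 h, with Jak2 and Tyk2 called higher and Jak1 not called.

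Of 14 further inhibitors, 7 were called higher, 4 lower and 3 not called at 24 h, with a median of 0.29, against the same 31.0% and 31.9% of all genes. Socs5 and Socs1 were higher by 1.80 and 1.35 (adjusted p = 1.45e-05 and 1.15e-05). Socs1, a strong inhibitor of JAK kinases, had been lower at 0, 2 and 6 h, by -0.96, -1.20 and -1.37 (adjusted p = 0.00688, 0.000405 and 3.7e-05). Ptpn6, which encodes the phosphatase SHP-1, and Ptpn2, a phosphatase of JAK1 and JAK3, differed by -1.18 and -0.76 (adjusted p = 1.32e-09 and 3.47e-06).

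Among 15 genes known to respond to STAT5 or to IL-7 withdrawal, 5 were called higher, 6 lower and 4 not called at 24 h, with a median of 0.37. These counts lie near the 31.0% and 31.9% of all genes called in each direction. The list joins genes that may respond in opposite directions, so its counts and median do not show either kind alone. Besides the genes named next, Foxo1 (2.13), Rag2 (2.08) and Pim2 (0.78) were called higher. Also called lower were Myc (-2.52), Bcl2 (-2.20), Osm (-1.30) and Ccnd3 (-1.01). Rag1, a subunit of the recombinase, was higher by 5.19 (adjusted p = 2.52e-14). Bcl6, a repressor that STAT5 holds down in pre-B cells, was higher by 4.36 (adjusted p = 1.17e-10) and at all 6 times, from 2.00 at 0 h. Ccnd2, which encodes cyclin D2, and Lta, which encodes lymphotoxin alpha, differed by -3.25 and -3.72 (adjusted p = 2.31e-14 and 3.62e-08).

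The 2 STAT5 targets Pim1, a survival kinase, and Bcl2l1, which encodes Bcl-xL, were chosen after their values were seen. Pim1 differed by -1.62, -1.99, -0.99 and -0.92 at 0, 2, 6 and 12 h, with adjusted p of 0.000183, 6.37e-06, 0.0064 and 0.00776, and by 0.38 at 24 h (adjusted p = 0.232). Bcl2l1 differed by -0.45, -1.95, -1.40 and -0.82 at those times and by 0.04 at 24 h (adjusted p = 0.802). Both were called lower from 0 to 12 h and not called at 18 or 24 h. Of the other listed genes, Id1 was called in the same way. The list did not share this course as a whole. Pim2 was called higher from 2 to 24 h, and Mcl1 was called at no time. Ccnd2 and Myc were called lower from 2 to 24 h, and Bcl2 from 12 to 24 h. At 0 h Ccnd2 had been called higher (0.70, adjusted p = 0.0141).

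**Figure D4:**
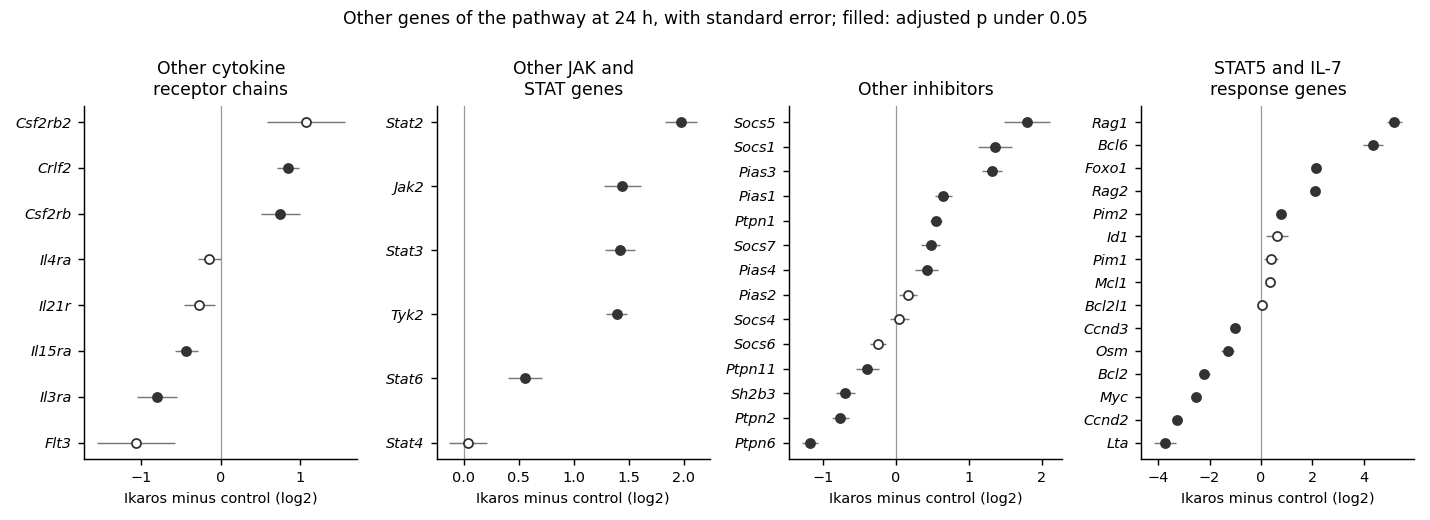
Difference in log2 expression at 24 h, Ikaros minus control (horizontal axes), for the other pathway genes with a row, ordered by value within each list, with bars for the standard error. Filled circles have an adjusted p under 0.05 and open circles do not. Among the other JAK and STAT genes 5 of 6 are filled to the right of zero, and the response genes reach from Lta at -3.72 to Rag1 at 5.19.

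The cell type and line labels were checked on markers. All 10 listed pre-B markers had a row, and the log2 of their summed level lay between 19.30 and 19.71 in control and between 18.99 and 19.90 in Ikaros libraries. That sum is carried by Cd79a, and single markers moved apart at 24 h, with Igll1 at -3.96, Vpreb1 at -3.42, Cd79b at 2.29, Blnk at 4.14 and Rag1 at 5.19 (adjusted p = 1.95e-15, 4.8e-12, 5.51e-16, 4.19e-16 and 2.52e-14). Of 8 T cell markers only Lck had a row, with a level between 10.82 and 11.22 in control and between 10.26 and 11.75 in Ikaros libraries, and the CD3 chain genes had none. Of 6 myeloid markers 2 had a row, with sums from 6.01 to 8.74 in control and 7.82 to 10.03 in Ikaros libraries, and of 5 markers of natural killer and innate lymphoid cells 3 had, from 6.41 to 8.89 and from 6.51 to 9.78. Some of these markers moved with induction. Itgam differed by -0.78 at 0 h and 4.24 at 24 h (adjusted p = 0.487 and 1.39e-07), and Lyz2 by 2.94 and -2.94 (adjusted p = 0.000627 and 4.96e-05). Gata3 differed by 0.39 and 1.91 at these times (adjusted p = 0.78 and 0.00239). In the same list Nkg7 went the other way, at 2.70 and -1.32 (adjusted p = 0.00573 and 0.0714). Klrb1c was not called at either time (0.24 and 0.94, adjusted p = 0.916 and 0.243). Lck differed by 0.71 at 0 h (adjusted p = 0.000166) and 0.02 at 24 h. The part of these markers in the results above was not tested. Ikzf1, which encodes Ikaros and in Ikaros cells also reads the transgene, lay between 13.95 and 14.85 in control and between 19.63 and 20.93 in Ikaros libraries.

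For the 4 genes whose group means spanned at least 2 units, the genes with the most similar course over the 12 group means were found by Pearson correlation, as a description over means that share libraries and lines. Among the nearest to Il7r were Zeb2 (r = 0.961) and Stx16 (0.957). Nearest to Il2ra were Sord (0.951), Gm13245 (0.95) and Treml2 (0.948). Cish was followed most closely by Pde8a (0.933), Myl10 (0.933) and Stard4 (0.928), and Socs2 by Prkch (0.980), Epb4.1l4b (0.962) and Plscr1 (0.957). By Spearman correlation both genes named for Il7r, 1 each of Il2ra and Cish, and 0 of Socs2 stayed among the 10 nearest.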

How the data were processed

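Messenger RNA was sequenced with paired, strand-specific reads. According to the methods and the submitters' processing notes, the authors trimmed reads, aligned them to mm10 with TopHat2, counted fragments per gene with HTSeq, normalized with cqn for GC content and length, and adjusted for library preparation with ComBat. The deposited values are on a log2 scale (the base is that of cqn and is not stated in the table), shifted so that the lowest value is 1. Without counts, library depth is not known, and precision is limited by having 3 libraries per group. Variation removed by ComBat is not seen by later fits, so errors may be too small. The strand setting of HTSeq is not given in the sources used here.

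The model was a limma fit (version 3.58.1, R version 4.3.3) of 1 mean for each of 12 groups, followed by eBayes and tested on simulated data first. The simulated noise was independent between libraries and held no culture batches, so that test does not cover the pairing described below. P-values are two-sided, Benjamini-Hochberg adjusted over 12762 genes, and called under 0.05. The members and gene lists were chosen with earlier results of these data known, and no p was adjusted over a list alone. Named were the 10 members, in each list the 2 highest and 2 lowest called genes at 24 h and any called in 1 direction at all 6 times, for members spanning at least 2 units the 3 most similar genes with a symbol and a mean at or above the median gene (11.72), and Ikzf1. Pim1, Pim2, Bcl2, Bcl2l1, Mcl1, Myc, Id1, Osm, Ccnd3, Foxo1, Rag2, Tyk2 and Stat4 are named outside this rule, after their values were seen. So are the overlapping genes Insl3 and Stat3 and the cell type markers. A gene of the JAK and STAT list and a gene similar to Il7r are not reported here. Replicates share culture batches by the labels, which pairs the lines: over 18 pairs of same-batch libraries, deviations from group means correlated between -0.062 and 0.507 (median 0.128, 12 pairs above 0.1). The fit with batch as a block is an alternative beside leaving out each replicate (1, 2 or 3, which are batch 1, batch 2 at 0 h or 3 later, and batch 4), a filter dropping the lowest 25% of genes, quantile normalization, eBayes with trend and robust settings, and fits of the compared groups only. Another pseudocount could not be tried on log values. Library medians lay between 11.70 and 11.73, the lowest correlation within a group was 0.962, and no libraries shared more than 0.384% of values. Positions are from GENCODE mouse release 21 on GRCm38, and sequences from RefSeq on GRCm38.p6.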

Additional observations from a re-analysis of the deposited data

Results flagged for a closer look

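For 7 genes the difference between Ikaros and control cells at 24 h departed from that at 0 h by a test of the change itself (limma, adjusted p under 0.05). The changes in log2 units were 4.83 for Il2ra, 2.55 for Il7r, 1.93 for Il2rg, 1.30 for Stat5b, 0.98 for Stat5a and 1.62 for Socs3, with Jak3 at -1.08. Of all genes, 48.4% passed the same test. With 3 libraries a group, no search for single outlying libraries was made.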

How the results depend on the processing

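Of 141 values of single genes, 89 kept direction and call in all alternatives that gave a value, and 9 changed direction in some. These values are the differences between lines, the changes of the difference from 0 or 2 h to 24 h, and the changes within Ikaros cells. Of the changes within control cells they hold only that of Il7r from 0 to 24 h. With culture batch as a replicate block, 6 of the 10 genes were called between lines at 0 h (3 without the block), against 10.7% of all genes (8.33% without). In Ikaros cells from 0 to 2 h it gave 3 (1 without), against 29.1% (19.2% without). In control cells from 0 to 6 h it gave 2 (0 without), against 20.3% (5.1% without). In control cells from 2 to 24 h it gave 1 (0 without), against 0.917% (0.454% without). The block turned the change from 0 h in Ikaros cells to 0.10 for Il2ra at 2 h and to -0.061 for Stat5a at 6 h, and ended the Jak3 call at 6 h (adjusted p = 0.075). Fitting the compared groups alone gave 6 calls between lines at 0 h. The control call of Il7r at 24 h was lost (0 genes) in that fit and under quantile normalization. Leaving out 1 replicate gave 3 to 4 calls between lines at 2 h, 3 to 6 at 12 h, 3 to 6 in Ikaros cells at 6 h, 0 in control cells at 24 h, and for the change of the difference 0 at 2 h, 0 to 2 at 6 h and 2 to 5 at 12 h. Small differences then crossed zero, none of them called: between lines Il2ra at 12 h (-0.15 to 0.0546), Jak1 at 18 h (-0.0719 to 0.19) and Socs3 at 6 h (-0.14 to 0.59), and from 0 to 2 h in Ikaros cells Jak3 (-0.23 to 0.093), Stat5a (-0.13 to 0.14), Stat5b (-0.0094 to 0.34) and Cish (-0.59 to 0.0797). The cause of these changes was not tested. Shares of all genes are not given for the fits of compared groups alone or without 1 replicate. Their counts therefore cannot be set against all genes. The low-value filter kept 9571 genes and gave no value for Socs3.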
